A study of Mus musculus with 24 samples.

Results

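At day 10 of osteoblast differentiation, cultures from high bone mass (HBM) mice held more RNA of 11 osteoblast genes, among them those of osteocalcin, bone sialoprotein and osteopontin, than wild-type (WT) cultures, and less RNA of Sox9 and Sox5, regulators of cartilage, and of the skull patterning factors Zic1, Zic4 and Foxd1. The comparison used 6 of the 24 RNA-seq libraries of the series: WT and HBM cultures at day 10, with 3 libraries of each genotype, chosen by their day and genotype labels and paired by batch (18, 19 and 21). Each library is polyA RNA from osteoblasts grown out of pooled newborn mouse calvariae, the flat bones of the skull, and the labels call the 3 pools of a genotype independent cultures. The labels name the genotypes only as WT and HBM, with no treatment and no age beyond newborn for either. The sources used here do not give the allele, its zygosity, the strain or the sex of the pups. The remaining 18 libraries, from days 0, 15 and 21, entered the fit and serve for comparison.

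Osteoblasts mature in steps. Mesenchymal cells commit through the transcription factors Runx2 and Sp7, lay down type I collagen, and then switch on the phosphatases, acidic phosphoproteins and osteocalcin that go with mineral deposition, before some become osteocytes. Type I procollagen is secreted with a C-propeptide that Bmp1 and related tolloid proteases remove, helped by the enhancer Pcolce, so that fibrils can assemble, and the title of the series names this step. General knowledge, and not the labels, ties a high bone mass trait to changes at that cleavage site.

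The day 10 libraries held 36787357 to 43013049 counts. All 7 markers set down for osteoblasts (Runx2, Sp7, Col1a1, Alpl, Ibsp, Bglap and Dmp1) had reads in each of the 6 libraries. Batch moved Ibsp and Bglap more than genotype did: in both genotypes batch 19 had the highest and batch 21 the lowest level of Sp7, Ibsp and Bglap. The pools also differed in sex. Xist, transcribed from the inactive X chromosome of females, stood at 319.8, 41.7 and 0 CPM (counts scaled to a common library size and composition) in WT batches 18, 19 and 21, and at 292, 217 and 0.0235 CPM in the HBM ones, so batch 21 paired pools that were near 0 for Xist, and batch 19 paired unlike pools. None of the 9 sex-linked genes tested passed the threshold. None of the 7 genes tested on the Y chromosome was called. On the X, 6 of 544 were called (1.1%), all lower in HBM, where 0.639% of all genes were called lower. The part of pool sex in the results was not tested.

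To show the letters upstream of genes that the results describe, the stretches of 250 bases just upstream of the gene start are printed for 2 bone matrix genes and for 3 genes of low-oxygen responses that were all higher in HBM. They come from RefSeq for build GRCm38.p6, run 5′ to 3′ on the gene's own strand, and end next to the start site. Capitals mark ACCACA, a core bound by Runx factors, in the bone genes, and ACGTG, the core of the hypoxia response element, in the others. Either strand counts as a match, and ACGTG also lies inside the E-box CACGTG. Bglap covers chr3:88384467-88384716 (minus strand), Ibsp chr5:104299037-104299286 (plus), Ankrd37 chr8:45999851-46000100 (minus), P4ha1 chr10:59323046-59323295 (plus) and Slc16a3 chr11:120948817-120949066 (plus).
Bglap: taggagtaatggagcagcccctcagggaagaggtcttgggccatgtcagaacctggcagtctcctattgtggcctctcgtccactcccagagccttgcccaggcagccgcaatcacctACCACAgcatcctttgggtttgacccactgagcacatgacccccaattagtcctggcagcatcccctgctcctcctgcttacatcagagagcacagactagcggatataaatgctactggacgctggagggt
Ibsp: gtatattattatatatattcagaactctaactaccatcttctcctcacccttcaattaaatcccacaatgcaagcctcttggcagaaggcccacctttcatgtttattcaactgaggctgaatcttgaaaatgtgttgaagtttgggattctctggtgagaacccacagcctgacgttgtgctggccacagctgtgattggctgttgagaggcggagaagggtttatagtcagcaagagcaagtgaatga
Ankrd37: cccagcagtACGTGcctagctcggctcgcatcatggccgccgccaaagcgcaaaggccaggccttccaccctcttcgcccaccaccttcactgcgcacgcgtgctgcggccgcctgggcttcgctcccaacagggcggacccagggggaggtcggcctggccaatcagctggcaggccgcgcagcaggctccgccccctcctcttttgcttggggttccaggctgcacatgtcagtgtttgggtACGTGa
P4ha1: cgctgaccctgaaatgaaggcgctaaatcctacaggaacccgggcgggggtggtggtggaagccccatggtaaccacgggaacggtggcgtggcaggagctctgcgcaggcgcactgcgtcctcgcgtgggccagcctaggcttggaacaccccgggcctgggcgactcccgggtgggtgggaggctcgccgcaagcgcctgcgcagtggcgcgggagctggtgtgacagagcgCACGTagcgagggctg
Slc16a3: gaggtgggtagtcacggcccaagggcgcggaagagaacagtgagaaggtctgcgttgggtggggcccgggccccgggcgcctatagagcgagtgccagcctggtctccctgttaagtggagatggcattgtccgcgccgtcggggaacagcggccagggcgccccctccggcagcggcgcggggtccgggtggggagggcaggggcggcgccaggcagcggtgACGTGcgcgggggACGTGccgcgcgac

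The Bglap window held 1 match, which began 132 bases upstream of the start, and the Ibsp window held none, as did those of the bone genes Ifitm5 and Phospho1, which were also searched. Ankrd37 had 2 matches, 241 and 6 bases upstream. A single match lay 16 bases upstream in P4ha1, and the 2 in Slc16a3 lay 27 and 14 bases upstream. Over whole classes the shares were as follows. ACCACA occurred in 14.05% of the 32851 windows of all genes, in 10.97% of those of the genes tested, in 12.24% for genes higher in HBM and in 12.38% for genes lower. ACGTG occurred in 16.57%, 20.45%, 21.43% and 16.19% of the same windows. Windows were at hand for 11973 of the 16592 genes tested, 73 of the 111 higher and 77 of the 106 lower. Some genes had more than 1 window, and each window was counted. A match describes the letters and does not show binding.

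Of the 16592 genes tested, 217 (1.31%) differed between HBM and WT at day 10 with an adjusted p under 0.05, by edgeR's quasi-likelihood test on counts with a term for each batch and Benjamini-Hochberg adjustment over all genes tested. In HBM, 111 genes (0.669%) were higher and 106 (0.639%) lower. These shares are the background for every count of called list members below. The changes upward were the larger ones: 73 of the higher genes and 39 of the lower genes differed by at least 2-fold, and the median log2 difference (HBM minus WT) was 1.26 among the first and -0.83 among the second, against -0.00293 over all genes tested. The direction was the same in each batch for 106 of the 111 higher and for 106 of the 106 lower genes. Over all genes tested, 21.5% were above 0 and 23.1% below 0 in each batch. The calls came from a test paired by these same batches, so the shared direction is not separate support. The levels of the 2 genotypes did not overlap for 21 of the higher and 73 of the lower genes, where 11.7% of all genes tested showed no overlap, so most of the higher genes differed within batches while their ranges overlapped across batches. An unadjusted p under 0.05 was reached by 2511 genes (15.1%).

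These calls rest on the pairing, on all 3 batches and on a spread estimated over all 4 days. Each day used the same 3 batches, and the fit treats the days as independent. The same paired model on the 6 day 10 libraries alone called 2 genes higher and none lower (1812 and 1511 at an unadjusted p under 0.05). Without the batch terms, no gene passed (192 higher and 284 lower at an unadjusted p under 0.05), and with 1 batch term shared by the days none did either (573 and 683 unadjusted). DESeq2 with the same batch terms called 584 (3.52%). Without batch 18, 2 genes were higher and 8 lower. Without batch 19 the counts were 4 and 0, and without batch 21 they were 96 and 25, among them 70 of the 111 and 17 of the 106. The size of the upward changes also depended on the batch: over the 111 genes the median was 1.45 in batch 18, 1.31 in batch 19 and 0.63 in batch 21, while for the 106 lower genes it was -0.62, -0.91 and -0.78. Lgi2, a secreted leucine-rich protein named here after its values were seen, had the smallest adjusted p (0.00558): it measured 29, 21.5 and 7.68 CPM in WT batches 18, 19 and 21 and 72.5, 58 and 20.7 CPM in HBM, and it passed without any 1 batch (adjusted p = 0.0222, 0.0419 and 0.0102 without 18, 19 and 21).

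**Figure D1:**
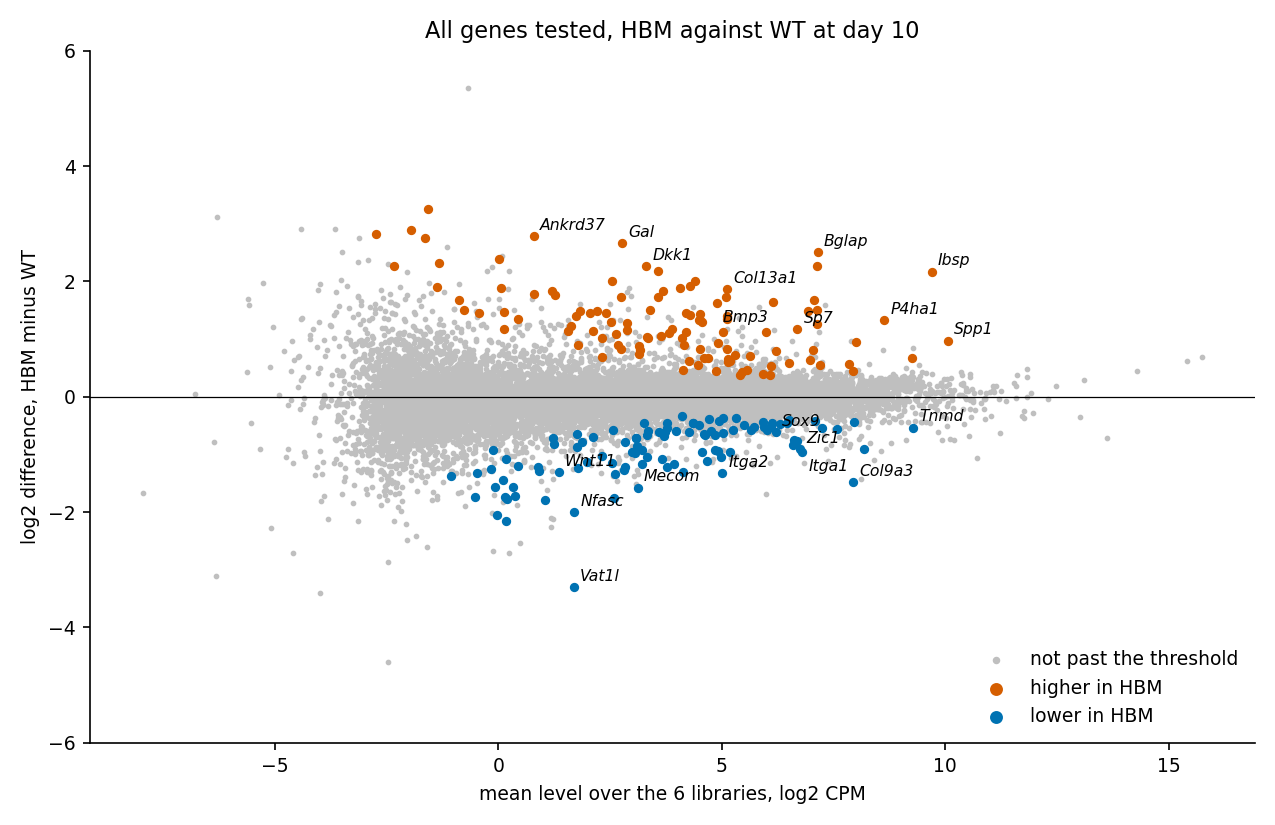
Each point is 1 of the 16592 genes tested; the x axis gives its mean level over the 6 libraries (log2 CPM) and the y axis its log2 difference, HBM minus WT. Orange points are the 111 genes higher in HBM and blue points the 106 lower; the bone matrix genes Ibsp and Spp1 lie at the right among the abundant ones, and Vat1l is the lowest blue point at -3.30.

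Of 26 osteoblast genes listed, 25 were tested and 11 were higher in HBM, with none lower, where 0.669% of all genes were called higher. Their median log2 difference was 0.70, and 23 of the 25 values were above 0 (49.4% over all genes). In RNA from whole cultures, fewer cells of a type and less RNA per cell cannot be told apart. The 11 covered the program from its regulators to its late products.

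Runx2, the first regulator of the lineage, measured 74.2, 100.1 and 68.6 CPM in WT batches 18, 19 and 21 and 99.6, 108 and 64.8 CPM in HBM, and was not called (log2 difference 0.15 ± 0.10 SE, adjusted p = 0.554). Sp7 (osterix), which acts downstream of Runx2, measured 52.3, 103 and 28.1 CPM in WT and 146, 240.2 and 49.8 CPM in HBM. It was higher in HBM in every batch although the genotypes overlapped across batches, 2.26-fold in the fit (log2 difference 1.18 ± 0.19, adjusted p = 0.0165). The homeobox factor Dlx3 stood at 4.66, 17.3 and 0.763 CPM in WT and at 28.3, 47.2 and 2.04 CPM in HBM (1.88 ± 0.30, adjusted p = 0.0167). Creb3l1, a membrane-bound factor that drives Col1a1 transcription in osteoblasts, stood at 202, 219 and 126 CPM and at 287, 357 and 180.5 CPM (0.58 ± 0.10, adjusted p = 0.0173). All 3 of these factors were higher in HBM in all 3 batches. Dlx5 and Dlx6, other factors of the lineage, had values of 0.32 and 0.47 and did not pass (adjusted p = 0.21 and 0.0855).

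The late matrix proteins were among the largest changes. Bglap, which encodes osteocalcin, rose from 34.1, 136 and 1.81 CPM in WT batches 18, 19 and 21 to 324, 339 and 15.8 CPM in HBM, 5.68-fold in the fit (2.51 ± 0.38, adjusted p = 0.0138). Its neighbour Bglap2 gave 39.6, 128 and 4.4 CPM against 307, 339.7 and 24.5 CPM (2.27 ± 0.31, adjusted p = 0.0138). The pair are near-identical copies on chromosome 3, so the split of reads between them is uncertain. Ibsp, bone sialoprotein, an acidic glycoprotein that nucleates mineral, measured 210.5, 840.2 and 19.9 CPM in WT and 1440.3, 2367 and 93.8 CPM in HBM (2.17 ± 0.31, adjusted p = 0.0138). Spp1, osteopontin, measured 708, 1111 and 242 CPM and 1626, 2315 and 383 CPM (0.97 ± 0.18, adjusted p = 0.0289). For these genes the WT pool of batch 19 lay above the HBM pool of batch 21, and the HBM pool led within every batch.

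Genes of the mineralizing machinery followed. Phospho1, a phosphatase that releases phosphate inside matrix vesicles, stood at 3.55, 12.7 and 0.992 CPM in WT and 18.8, 32.4 and 2.47 CPM in HBM (1.73 ± 0.28, adjusted p = 0.0168). Smpd3, a sphingomyelinase whose loss in mice impairs mineralization, stood at 41.3, 147 and 6.41 CPM and 222, 368 and 15.2 CPM (1.68 ± 0.29, adjusted p = 0.0197). Exons of Phospho1 overlap those of Zfp652, and exons of Smpd3 those of Prmt7, so some of their reads may belong to the neighbour. Ifitm5, a membrane protein of mineralizing osteoblasts that is mutated in a form of brittle bone disease, had a difference of 1.92 ± 0.32 (adjusted p = 0.0186), and Tmem119, a membrane protein of the lineage, one of 0.95 ± 0.15 (adjusted p = 0.0168). Of the list of mineralization regulators, 14 of 17 members were tested. Of these, 4 were higher (Ibsp, Phospho1, Smpd3 and Spp1) and none lower, where 0.669% of all genes were called higher. Alpl, the alkaline phosphatase that hydrolyses pyrophosphate, measured 139, 233 and 74.3 CPM in WT and 355, 519 and 95.5 CPM in HBM and did not pass (0.96 ± 0.29, adjusted p = 0.135). Enpp1 and Ank, which supply pyrophosphate, had values of 0.26 and 0.07 (adjusted p = 0.662 and 0.795).

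Without batch 18, none of the 11 osteoblast genes passed (adjusted p = 0.0705 to 0.144), without batch 19 Bglap and Bglap2 did (0.0199 and 0.0223, up to 0.328 for the others), and without batch 21 all but Bglap did (0.0317 to 0.0472, and 0.0501 for Bglap). The median of the list was 0.55, 0.64 and 1.04 in turn. DESeq2 with the same batch terms called 13 members higher.

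**Figure D2:**
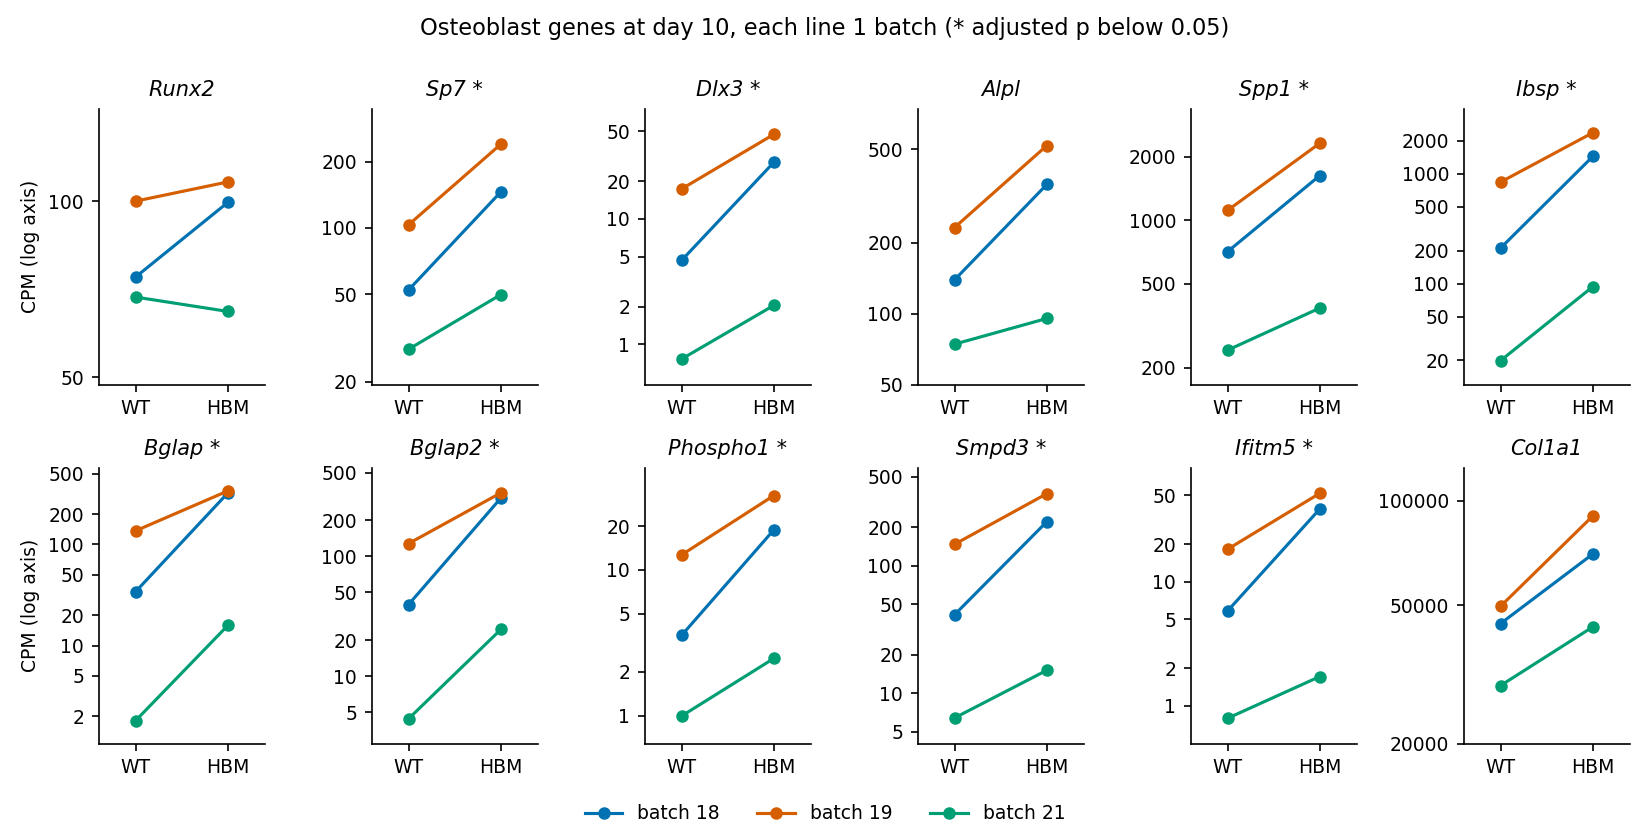
Levels of 12 osteoblast genes at day 10 in CPM on log axes, WT at the left and HBM at the right of each panel, with 1 line for each batch and a star for an adjusted p below 0.05. The lines of Sp7, Dlx3, Ibsp, Bglap and Phospho1 climb in all 3 batches, batch 21 lies lowest in each of these panels, and Runx2 falls in batch 21.

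Osteocyte genes, which mark the last step, were mostly not past the threshold. Of the 11 tested of 12 listed, 1 was higher and none lower, where 0.669% of all genes were called higher. That gene was Dkk1, a secreted Wnt antagonist, at 1.37, 10.6 and 0.102 CPM in WT and 12.1, 35 and 0.306 CPM in HBM (2.27 ± 0.33, adjusted p = 0.0138). Sost, the osteocyte Wnt antagonist sclerostin, was nearly silent in batch 21 of both genotypes: it gave 0.648, 10.6 and 0 CPM in WT and 7.55, 15 and 0.0235 CPM in HBM (1.61 ± 0.59, adjusted p = 0.23). Dmp1, a phosphoprotein of early osteocytes, gave 11, 53.8 and 3.28 CPM and 51.2, 125 and 4.47 CPM (1.37 ± 0.44, adjusted p = 0.152). Phex, an osteocyte peptidase in phosphate control, had a value of 0.89 and Mepe one of 0.13 (adjusted p = 0.273 and 0.972). Dkk1 lost its call without batch 18 (adjusted p = 0.0819) and without batch 19 (0.0664).

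The type I collagen chains were higher in HBM in each batch and fell just short of the threshold. Col1a1 measured 44340, 49719 and 29391 CPM in WT batches 18, 19 and 21 and 70331, 90513 and 43378 CPM in HBM, a 1.62-fold difference in the fit (0.70 ± 0.16, adjusted p = 0.0523). DESeq2 called it (adjusted p = 5.85e-06). Col1a2 measured 36407, 42442 and 21428 CPM and 57016, 73143 and 28842 CPM (0.62 ± 0.15, adjusted p = 0.0702). In batch 21 the HBM level of either chain lay within the WT range. Among 18 fibrillar and fibril-associated collagens, 1 was higher, 1 was lower and the median was -0.02. The higher one, Col24a1, a minor fibrillar collagen of bone, stood at 34.9, 70.02 and 10.2 CPM in WT and 95.6, 149.7 and 17.7 CPM in HBM (1.13 ± 0.22, adjusted p = 0.0368), and the lower one was the cartilage gene Col9a3. Of 14 other collagens, Col13a1, a transmembrane collagen, was the 1 called, at 9.38, 42.4 and 1.3 CPM against 55.2, 96.3 and 4.98 CPM (1.86 ± 0.28, adjusted p = 0.0138). Col24a1 did not pass without any of the 3 batches (adjusted p = 0.0636 to 0.359), and Col13a1 did not without batch 18 (0.0819).

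Of 30 genes that modify and process procollagen, 28 were tested, 2 were higher and none lower, where 0.669% of all genes were called higher. P4ha1, the catalytic subunit of a prolyl 4-hydroxylase that stabilizes the collagen helix, measured 151, 272 and 156 CPM in WT batches 18, 19 and 21 and 459, 1143 and 190.2 CPM in HBM (1.33 ± 0.27, adjusted p = 0.0391). The excess was large in batches 18 and 19 (1.60 and 2.07 on the log2 scale) and small in batch 21 (0.28). P3h2, a prolyl 3-hydroxylase, gave 3.81, 4.48 and 2.7 CPM and 8.86, 14.2 and 3.31 CPM (1.10 ± 0.23, adjusted p = 0.0442). As for the removal of the C-propeptide itself, the protease Bmp1 measured 419, 377 and 237 CPM in WT and 471, 511 and 284 CPM in HBM (0.29 ± 0.09, adjusted p = 0.156). Its enhancer Pcolce measured 1869.9, 1411 and 1135 CPM and 2028, 1542 and 1259 CPM (0.13 ± 0.13, adjusted p = 0.698). Both were higher in HBM in every batch, as were 21.5% of all genes tested, and neither passed. The related protease Tll1 had a value of -0.71 ± 0.21 (adjusted p = 0.134), with 117, 199 and 102 CPM in WT and 71.9, 101 and 74.8 CPM in HBM, which do not overlap. The median of the list was 0.29, and 14 members were higher and 1 lower at an unadjusted p under 0.05, where 7.2% and 7.93% of all genes were. Neither hydroxylase was called without batch 18 (adjusted p = 0.188 and 0.189) or batch 19 (0.455 and 0.58), and both were without batch 21.

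No lysyl oxidase of the 5 tested, no small leucine-rich proteoglycan of 13, no matricellular or microfibril gene of 30 and no matrix protease or inhibitor of 24 passed in edgeR. At an unadjusted p under 0.05 these lists held 1, 0, 3 and 5 members higher in HBM and 0, 3, 6 and 3 lower. DESeq2 called 1, 1, 4 and 1. The smallest p among the lysyl oxidases was that of Loxl4, at 14.7, 48.2 and 12.3 CPM in WT and 58.4, 112 and 16.2 CPM in HBM (1.21 ± 0.29, adjusted p = 0.0698). These enzymes cross-link collagen and elastin. Tnn, of the matricellular list, measured 75.5, 102 and 52 CPM in WT and 215, 367 and 140 CPM in HBM, without overlap, and was not called. The median of its list was -0.18.

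Of 39 members of the Wnt pathway, which controls bone formation, 37 were tested, with a median of 0.16. Among them 3 were called higher and 1 lower, where 0.669% and 0.639% of all genes were, and 33 did not pass. Wnt10b, a bone-forming ligand, measured 5.36, 7.02 and 0.967 CPM in WT and 8.57, 18.1 and 3.95 CPM in HBM (1.28 ± 0.25, adjusted p = 0.0366). Tcf7, a nuclear effector of the pathway, measured 9.4, 24.4 and 2.77 CPM and 36.7, 56.7 and 4.3 CPM (1.33 ± 0.23, adjusted p = 0.0227). The antagonist Dkk1 was the third. Wnt11, a ligand of the non-canonical branch, was lower in HBM without overlap: 2.51, 3.69 and 4.73 CPM in WT against 1.36, 1.15 and 1.86 CPM (-1.30 ± 0.22, adjusted p = 0.0199). The target genes Axin2 and Lef1 had values of 0.04 and -0.43 (adjusted p = 0.965 and 0.831). None of the 4 passed without batch 18 (adjusted p = 0.0661 to 0.138) or without batch 19 (0.0664 to 0.398), and Dkk1 and Tcf7 passed without batch 21.

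The BMP and TGF-beta list, 35 genes, held 3 higher and 1 lower, where 0.669% and 0.639% of all genes were. Its median was -0.09 (0.01 without batch 19). Bmp2, an inducer of bone, stood at 7.25, 7.51 and 5.19 CPM in WT and 11.3, 10.8 and 11 CPM in HBM, without overlap (0.75 ± 0.12, adjusted p = 0.0168). Bmp3, a BMP abundant in bone that opposes other BMPs, stood at 12.4, 29.1 and 2.93 CPM and 47.9, 77.2 and 8.18 CPM (1.62 ± 0.22, adjusted p = 0.0138). Tgfb1, the TGF-beta stored in bone matrix, was 1.45-fold higher (0.53 ± 0.08, adjusted p = 0.0138), and Tgfb2 was 1.44-fold lower (-0.52 ± 0.11, adjusted p = 0.0439). Bmp8a, outside the list, was among the genes with the largest increases. The BMP target genes Id1, Id2 and Id3 had values of -0.19, 0.03 and -0.13 (adjusted p = 0.666, 0.933 and 0.789). The 4 calls were lost without batch 18 (adjusted p = 0.0719 to 0.0825) and batch 19 (0.134 to 0.549), and Bmp3 and Tgfb1 kept theirs without batch 21 (0.0317 and 0.0224). Of 28 genes of the IGF and FGF pathways, Etv4, an FGF-responsive factor, was the 1 called (0.69 ± 0.15, adjusted p = 0.0424), and it was not called without batch 18, 19 or 21 (0.0594, 0.455 and 0.153).

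**Figure D3:**
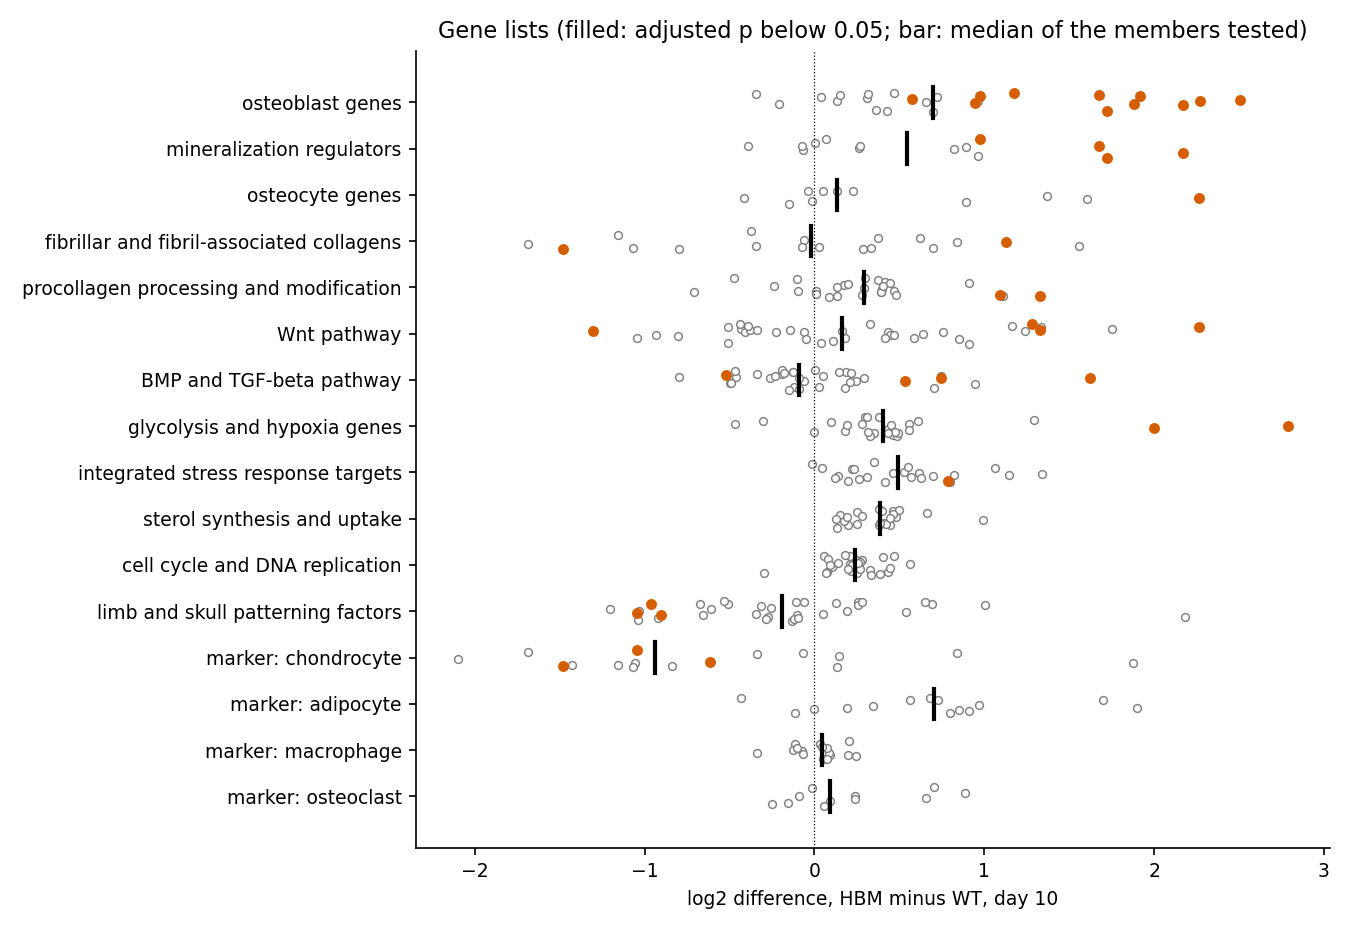
Each point is the log2 difference (HBM minus WT at day 10) of 1 tested member of a gene list; orange points passed the threshold and black bars are medians. Osteoblast genes hold 11 orange points and have a median of 0.70, cartilage markers lie to the left with a median of -0.94, and all 23 sterol genes lie above 0 with no orange point.

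Of 26 genes of glycolysis and hypoxia tested, 2 were higher in HBM and none lower, where 0.669% of all genes were called higher. Of the 26 values, 23 were above 0 (49.4% over all genes), and the median was 0.41. Ankrd37, a target of hypoxia-inducible factors, measured 0.0259, 1.25 and 0.102 CPM in WT batches 18, 19 and 21 and 1.36, 7.55 and 0.141 CPM in HBM (2.79 ± 0.47, adjusted p = 0.019). The WT levels of Ankrd37 in batches 18 and 21 were near 0, so the size of the difference is uncertain. Its exons overlap those of Ufsp2 on the opposite strand, and the strand setting of the counts is not given in the sources used here. Slc16a3, which exports the lactate of glycolytic cells, measured 1.79, 15.6 and 2.75 CPM and 14.9, 88.3 and 2.91 CPM (2.0 ± 0.43, adjusted p = 0.0463). With P4ha1, a gene known to respond to low oxygen, these are the genes whose upstream sequence is printed above. In each the excess was in batches 18 and 19, and batch 21 gave log2 differences of 0.26, 0.08 and 0.28. Slc2a1, the basal glucose transporter, gave 17.3, 15.4 and 21.5 CPM against 17.9, 35.7 and 24.3 CPM (0.48 ± 0.25, adjusted p = 0.401). Without batch 19 the median of the list was 0.16, and neither Ankrd37 nor Slc16a3 passed (adjusted p = 0.358 and 0.618). They did not without batch 18 either (0.0787 and 0.222), and did without batch 21.

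Sterol synthesis and uptake genes, which answer to Srebf2, all had values above 0, where 49.4% of all genes did. None of the 23 passed in edgeR, DESeq2 called 6, and the median was 0.39 (0.22 without batch 19). At an unadjusted p under 0.05, 19 were higher, as were 7.2% of all genes. Insig1, a sterol sensor of the endoplasmic reticulum, had the smallest p, at 51.5, 57.4 and 31.2 CPM in WT and 70.3, 96.5 and 38.1 CPM in HBM (0.50 ± 0.11, adjusted p = 0.0523).

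Of 24 targets of the integrated stress response, the Atf4-led program for amino acid supply, Nupr1 was called, at 56.8, 73 and 25.3 CPM in WT and 108, 148 and 33.4 CPM in HBM (0.79 ± 0.14, adjusted p = 0.026). Values were above 0 for 23 of the 24 (49.4% over all genes), and the median was 0.49 (0.25 without batch 19). Atf4 itself measured 140.4, 155 and 153 CPM in WT and 183, 214 and 162 CPM in HBM, and Asns, asparagine synthetase, had a value of 0.62 ± 0.27 (adjusted p = 0.349 and 0.312). Among 23 genes of the unfolded protein response and its chaperones, Creb3l1 was the 1 called and the median was 0.11 (0.06 without batch 19). Cell cycle and replication genes had 29 of 30 values above 0, a median of 0.24 (0.07 without batch 18) and none called (2 by DESeq2). At an unadjusted p under 0.05, 10 were higher, as were 7.2% of all genes. Myc, a growth regulator, was the 1 called of 21 immediate early genes, at 31.2, 29.3 and 21.6 CPM against 45.6, 44.4 and 38.9 CPM, without overlap (0.66 ± 0.14, adjusted p = 0.0423). Nupr1 was not called without batch 18 or 19 (adjusted p = 0.144 and 0.369), and Myc not without any of the batches (0.126, 0.369 and 0.145 without 18, 19 and 21).

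Some cartilage genes were lower in HBM. Calvarial bone forms mostly without a cartilage template. Which cells of the cultures held the RNA of these genes was not tested. Of 17 markers, 16 were tested, 3 were lower and none higher, where 0.639% of all genes were lower, and the median was -0.94. Sox9, the regulator that starts cartilage fate, measured 69.5, 92.1 and 107 CPM in WT batches 18, 19 and 21 and 48.5, 53.4 and 73.2 CPM in HBM, 1.53-fold lower (-0.62 ± 0.09, adjusted p = 0.0138). Its partner Sox5 measured 8.42, 16 and 16.4 CPM and 4.76, 6.52 and 8.18 CPM, without overlap (-1.04 ± 0.19, adjusted p = 0.0242). Col9a3, a chain of cartilage type IX collagen, measured 125, 540 and 380 CPM and 37.7, 251 and 125 CPM, 2.79-fold lower (-1.48 ± 0.27, adjusted p = 0.0281), and overlaps exons of Tcfl5. Each was lower in HBM in every batch.

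Col2a1, the main collagen of cartilage, stood at 595, 2630.3 and 3765 CPM in WT and 383, 1254 and 1338 CPM in HBM (-1.07 ± 0.23, adjusted p = 0.0503). Acan, aggrecan, the large cartilage proteoglycan, depended on the batch: 5.23, 72.8 and 76.6 CPM in WT and 9.57, 52.4 and 5.64 CPM in HBM (-1.06 ± 0.86, adjusted p = 0.628). Ihh, a hedgehog ligand of hypertrophic chondrocytes, went the other way at 0.414, 0.905 and 0.153 CPM against 2.52, 2.59 and 0.376 CPM (1.88 ± 0.45, adjusted p = 0.067). Summed over the markers the level was 1532, 5527 and 5702 CPM in WT and 1816, 3767 and 2074 CPM in HBM, lower in HBM in batches 19 and 21 and higher in batch 18. None of the 3 calls held without batch 18 (adjusted p = 0.0719 to 0.131) or batch 19 (0.188 to 0.336), and Sox9 alone held without batch 21 (0.0489).

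Of 37 factors that pattern the limbs and skull, 34 were tested, 3 were lower and none higher, where 0.639% of all genes were lower. The median was -0.19. Zic1, a zinc-finger factor of the cranial mesenchyme, measured 111, 157 and 152 CPM in WT and 53.4, 87 and 87.3 CPM in HBM (-0.90 ± 0.13, adjusted p = 0.0138). Zic4, its neighbour on chromosome 9, measured 36.4, 49.4 and 40.4 CPM and 14.7, 24.1 and 23.2 CPM (-1.05 ± 0.14, adjusted p = 0.0138). Their exons overlap on opposite strands, so the 2 are not separate evidence. Foxd1, a forkhead factor, measured 36.2, 59.7 and 49.5 CPM and 23.3, 21.4 and 28.9 CPM (-0.96 ± 0.18, adjusted p = 0.0314). In all 3 the highest HBM pool lay below the lowest WT pool. Of 26 Hox genes, which are largely silent in the skull, 9 were tested and none passed in edgeR (3 at an unadjusted p under 0.05, DESeq2 none). Their median was nonetheless -1.69, with 8 values below 0 and 1 above, and 6 were lower in HBM in every batch. At days 0, 15 and 21 the median was -1.57, -1.31 and -1.71. Levels were low: the list summed to 11.5, 26.7 and 6.33 CPM in WT batches 18, 19 and 21 and to 8.05, 16.3 and 1.93 CPM in HBM. The calls of Zic1, Zic4 and Foxd1 were lost without batch 18 (adjusted p = 0.0661 to 0.0719) or batch 19 (0.14 to 0.391), and Zic1 and Zic4 kept theirs without batch 21 (0.0353 and 0.0179).

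Beyond the lists, the 15 largest increases among genes of at least 1 CPM ran from 1.83 to 2.79 on the log2 scale and included Ankrd37, Bglap, Bglap2, Dkk1, Ibsp, Slc16a3, Col13a1, Dlx3 and Ifitm5, described above. Gal, the neuropeptide galanin, stood at 1.14, 4.82 and 0.127 CPM in WT and 13, 21.3 and 0.494 CPM in HBM (2.66 ± 0.58, adjusted p = 0.0481). Slc36a2, a proton-coupled amino acid transporter, stood at 5.88, 12 and 0.204 CPM and 23.2, 34.2 and 1.32 CPM (1.83 ± 0.25, adjusted p = 0.0138). Like the bone genes, both were highest in batch 19 and lowest in batch 21 of each genotype. The others were Bmp8a, Lingo3, Ccdc194 and Drd4, a dopamine receptor, and in none of the 15 did the genotypes separate without overlap. Among abundant genes, Gpc1, a heparan sulfate proteoglycan of the cell surface, rose 1.59-fold (0.67 ± 0.13, adjusted p = 0.0384). Without batch 18 none of the 15 passed (adjusted p = 0.0705 to 0.273), without batch 19 3 did and without batch 21 12 did.

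Among the 15 largest decreases, from -1.31 to -3.30, 10 separated the genotypes without overlap. So did 73 of the 106 lower genes and 11.7% of all genes tested. The 15 were picked by call, sign in every batch and size, so the lack of overlap is not separate support. Vat1l had the largest: 3.94, 10.6 and 2.85 CPM in WT against 0.691, 1.18 and 0.047 CPM in HBM (-3.30 ± 0.72, adjusted p = 0.0487). Nfasc, Cntnap2, Nrxn2 and Chrna4 are known mainly from nerve cells. Nfasc, neurofascin, measured 1.87, 4.6 and 9.49 CPM in WT and 0.905, 0.882 and 1.76 CPM in HBM (-2.0 ± 0.35, adjusted p = 0.0213). Cntnap2 and Nrxn2, of the neurexin family, had values of -1.77 ± 0.30 and -1.44 ± 0.28, and Chrna4, an acetylcholine receptor subunit, one of -1.73 ± 0.33 (adjusted p = 0.0173, 0.0331 and 0.0318). Of 8 neural and glial markers tested of 11, Map2 was the 1 called, as lower; 2 were higher and 1 lower at an unadjusted p under 0.05, and DESeq2 called 1 higher and 1 lower. Mecom, a zinc-finger transcription factor, measured 6.87, 19.8 and 12.4 CPM and 3.38, 6.64 and 2.87 CPM (-1.57 ± 0.27, adjusted p = 0.0192). None of the 15 passed without batch 18 (adjusted p = 0.0561 to 0.131) or without batch 19 (0.182 to 0.66), and 1 did without batch 21.

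Among the same decreases was a collagen receptor. Itga2, an integrin chain that binds collagen, stood at 33.1, 60.9 and 45.7 CPM in WT and 19.7, 15.6 and 18.9 CPM in HBM, 2.50-fold lower (-1.32 ± 0.29, adjusted p = 0.0463). Itga1, the other collagen-binding chain beside it on chromosome 13, was looked up after that value was seen: it stood at 109, 177 and 156 CPM and 69.9, 77.7 and 75.4 CPM (-0.96 ± 0.16, adjusted p = 0.0173). Both were lower in every batch without overlap. Among abundant genes, Tnmd, a membrane protein of tendon and ligament cells, fell 1.45-fold, from 661, 1008 and 551 CPM to 483, 594 and 422 CPM (-0.53 ± 0.11, adjusted p = 0.0388). It was the 1 called of 12 tendon and fibroblast markers, of which 6 had values above 0, with a median of -0.01. Sulf1, which trims sulfates from heparan sulfate outside the cell, fell 1.87-fold, from 289.8, 194 and 661 CPM to 140.1, 124 and 327 CPM (-0.90 ± 0.18, adjusted p = 0.0383). Adamtsl3, a secreted matrix protein, and Pygb, a glycogen phosphorylase, fell 1.48-fold and 1.35-fold. None of these 6 passed without batch 18 (adjusted p = 0.0619 to 0.16), without batch 19 (0.229 to 0.549) or without batch 21 (0.0501 to 0.136).

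Other cell types were present at levels that varied by batch. Macrophage markers, 16 tested, summed to 3059, 3564 and 9923 CPM in WT batches 18, 19 and 21 and to 1783, 5283 and 12801 CPM in HBM, lower in HBM in batch 18 and higher in the other two. None passed in edgeR or DESeq2, and none had an unadjusted p under 0.05. Adipocyte markers, 14 tested, summed to 660.3, 442 and 405 CPM and to 1012, 633 and 467 CPM, higher in HBM in each batch. Of the 14, 11 had values above 0 (49.4% over all genes). The median of the 14 was 0.70, as for the osteoblast genes, and 0.14 without batch 18. None passed in edgeR (3 at an unadjusted p under 0.05, 1 called by DESeq2), and the defining genes Adipoq and Fabp4 were at 0.0509 and 0.585 CPM in WT batch 21. Osteoclast markers, 11 tested of 12, summed to 566, 524 and 369 CPM and to 640.01, 595 and 445 CPM, with none called by edgeR or DESeq2 and 2 at an unadjusted p under 0.05. Of 13 blood markers none reached the level needed for testing, their sum was at most 0.245 CPM in any library, and 7 were at 0 in all 6. Of the smooth muscle (14), skeletal muscle (9), endothelial (7) and epithelial (4) markers tested, none was called by edgeR or DESeq2, and 4, 1, 0 and 1 had an unadjusted p under 0.05. The part of these cell types in the gene differences was not tested.

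Genes near Col1a1 were examined because its product carries the C-propeptide; the gene lies on chromosome 11 from 94936224 to 94953042. Of 46 genes tested within 1 megabase of its start, 4 were called (8.7%), all higher in HBM: Lrrc59, Sgca, Dlx3 and Phospho1. Between 1 and 5 megabases there were none, and within 10 megabases 6 of 312 were called (1.92%), against 18 of 1004 (1.79%) on the rest of the chromosome. Sgca, a muscle membrane protein gene, lies on the minus strand with its nearer end 26.6 kilobases from the start of Col1a1. It measured 1.66, 2.96 and 0.585 CPM in WT and 5.21, 8.7 and 0.964 CPM in HBM (1.41 ± 0.30, adjusted p = 0.0439). Lrrc59 measured 199, 219 and 195 CPM and 275, 344 and 226 CPM, without overlap (0.44 ± 0.09, adjusted p = 0.0423). Dlx3 and Phospho1 are also members of the osteoblast list. None of the 4 passed without batch 18 (adjusted p = 0.103 to 0.218) or batch 19 (0.14 to 0.535), and Sgca did not without batch 21 either (0.0608).

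The genotype difference at day 10 was set beside that of the other days. Over the 111 genes higher at day 10, the median difference was 0.05 at day 0, before differentiation, 1.26 at day 10, 1.08 at day 15 and 0.79 at day 21. For the 106 lower genes it was -0.31, -0.83, -0.57 and -0.52. Days share batches and 1 estimate of spread in the fit but no library, and the genes were chosen at day 10, so its own median is drawn to the larger side. Of the higher genes, 27 were also called higher at day 15, where 40 genes (0.241%) were, and 17 at day 21, where 26 (0.157%) were, while none was among the 2 (0.0121%) at day 0. Of the lower genes, 11 were among 15 (0.0904%) at day 15, 11 among 14 (0.0844%) at day 21 and 3 among 19 (0.115%) at day 0. Day 10 had the most calls, 217 (1.31%) against 21 (0.127%), 55 (0.331%) and 40 (0.241%) at days 0, 15 and 21, which does not show by itself that the days differ.

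Bglap, the osteocalcin gene, was below 1 CPM in all 6 libraries of day 0. It was at 0.0909, 0.0853 and 0.222 CPM in WT and 0.0819, 0.0519 and 0.166 CPM in HBM at day 0. At day 15 it reached 232, 458 and 38.7 CPM in WT and 935, 714 and 141 CPM in HBM, and at day 21 it was 567, 559 and 138 CPM and 1709.6, 786 and 282 CPM. The HBM level at day 10 thus lay between the WT levels of days 10 and 21 in each batch. Ibsp at day 0 was below 1 CPM in all 6 libraries, and its HBM level at day 10 (1440.3, 2367 and 93.8 CPM) was above the WT level of day 15 (806, 1684 and 255 CPM) in batches 18 and 19 and below it in batch 21. Over the list the median difference was 0.04, 0.70, 0.77 and 0.57 at days 0, 10, 15 and 21. For the cartilage markers it was -1.14, -0.94, -0.31 and -0.35, so their median was lowest before differentiation.

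**Figure D4:**
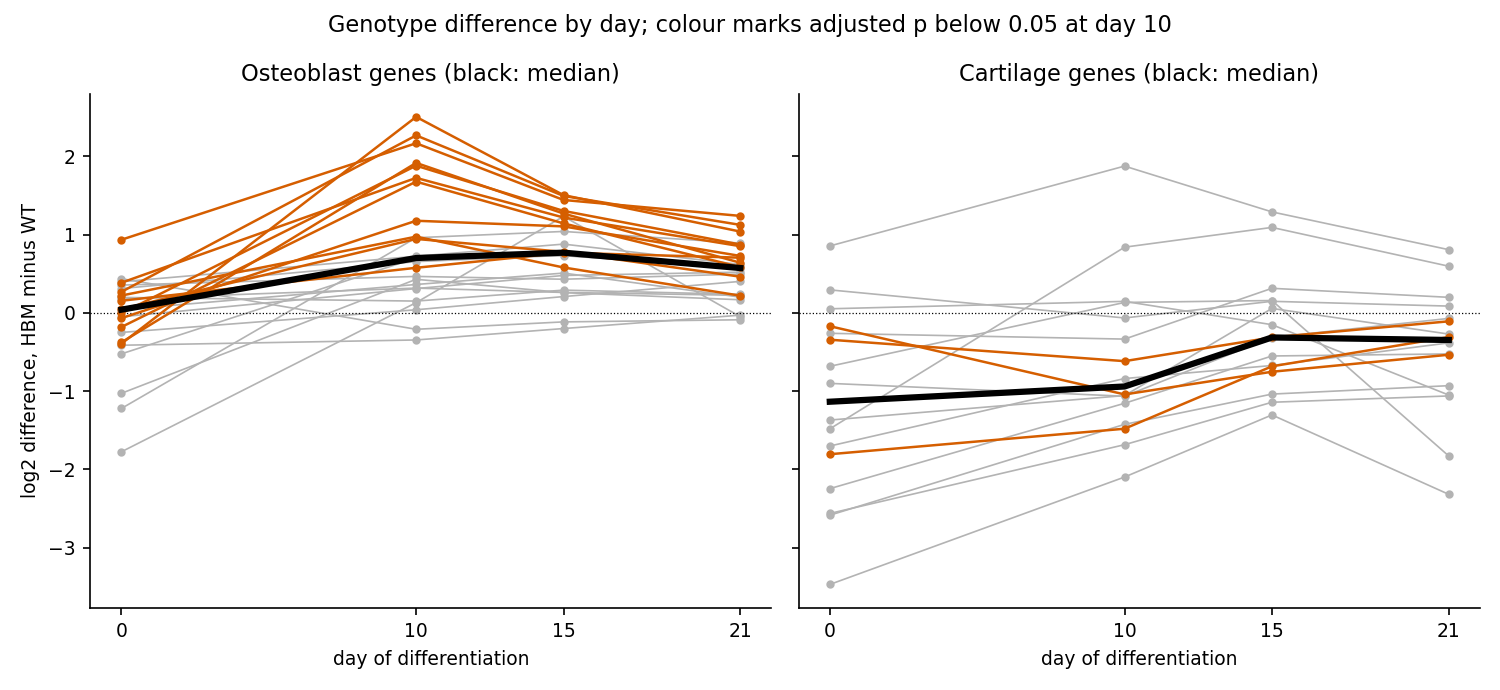
Log2 difference (HBM minus WT) of each tested osteoblast gene (left) and cartilage marker (right) against the day of differentiation; orange lines passed the threshold at day 10 and the black line is the median. The osteoblast median runs from 0.04 at day 0 to 0.70 at day 10, and the cartilage median from -1.14 to -0.94, then to -0.31 at day 15.

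Tests of the change between days gave few calls. The difference at day 10 departed from that at day 0 for 3 genes (0.0181%), Acp5, Ctsh and Prune2, with 2503 (15.1%) at an unadjusted p under 0.05, and DESeq2 called 151. Against day 15 no gene passed in edgeR (174, or 1.05%, unadjusted) or DESeq2, and against day 21 none did in edgeR (569, or 3.43%, unadjusted) and 1 in DESeq2. Prune2 was higher in HBM at day 0 (30.9, 22.1 and 19.1 CPM in WT, 45.3, 33.3 and 23.2 CPM in HBM) and lower at day 10 (37.1, 49.7 and 49.9 CPM against 26.3, 30.5 and 34.4 CPM). Acp5, an acid phosphatase of osteoclasts and macrophages, was lower in HBM at day 0 (-1.01) and near equal at day 10 (0.06), and Ctsh, a lysosomal protease, went from -0.56 to 0.32. All 3 were lost without batch 18 or batch 19 (adjusted p = 0.182 to 0.452), and Ctsh also without batch 21 (0.0562).

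Among genes called at day 10, those with the smallest p for a change against another day are given as values, since none but Prune2 passed. Tspan2, a tetraspanin, differed by -0.85 ± 0.09 at day 10 (adjusted p = 0.0073), from 9.27, 10.4 and 13.3 CPM in WT to 4.95, 5.76 and 7.68 CPM in HBM, and by -0.04 at day 0 and -0.48 at day 15. Mlip measured 1.45 at day 10 and -0.74 at day 0, and Mbnl3, a splicing regulator, -1.15 and 0.50. Galnt6, which starts mucin-type glycans, was higher in HBM at day 10 (7.62, 11.4 and 14.2 CPM against 14.3, 34.8 and 20.8 CPM) and not at day 21 (13.3, 22.5 and 27.8 CPM against 6.92, 20.7 and 26.1 CPM). Its difference was 1.03 at day 10 and -0.37 at day 21, with an adjusted p of 1.0 for the change. Tgfb1 and Sox9 shrank from 0.53 to 0.14 and from -0.62 to -0.11 between the same days by the same measure, also short of the threshold. Tspan2 passed at day 10 without batch 18 (adjusted p = 0.0498) and without batch 21 (0.0179) and not without batch 19 (0.0559). Galnt6 passed without batch 21 (0.0318) and not without batch 18 or 19 (0.102 and 0.402), as did Mlip (0.0168, and 0.0719 and 0.15), and Mbnl3 in none of the 3.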

How the data were processed

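PolyA RNA from 24 libraries (2 genotypes, 4 days, 3 batches) had been sequenced, and the authors deposited raw read counts per gene (54232 rows). Per the submitters' processing notes the tools were cutadapt 3.4, STAR 2.7.8a and featureCounts of Subread 2.0.1, with build mm10; the sources used here give neither the strand setting nor the annotation. Symbols and positions came from GENCODE M21, which matched 54164 rows; the 68 unmatched held at most 0.00337% of a library. Here edgeR 4.0.16 in R 4.3.3 (TMM, filterByExpr, quasi-likelihood test) was fitted to all 24 libraries with terms for batch within day and genotype within day, 8 residual degrees of freedom, and Benjamini-Hochberg adjustment over 16592 genes at 0.05. CPM are deposited counts over TMM-scaled library size, and the log2 difference in a single batch uses CPM plus 0.1. The standard error is the log2 difference over the square root of the F statistic. Library totals ran from 28039095 to 46987734 counts.

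The batch label pairs the samples, and deviations from the group means at day 10 correlated within batches (r = 0.669, 0.649 and 0.794 across genes) and from -0.653 to 0.127 between batches. Pools are separate cultures. With a term for each batch and day, the p-values measure how the difference between HBM and WT varies between batches, pooled over the 4 days. The spread between batches that both genotypes share is taken out, and without the batch terms no gene passed. On simulated counts of this design over 16481 genes, 53.7% of 1.5-fold, 92.5% of 2-fold and 100% of 4-fold changes were recovered, and 11 of 175 calls were unchanged genes. Each simulated library was drawn on its own, with no difference between pools that carries over the days. These shares hold for that setting and do not give the error rate of the calls here. Named genes (118) were Sost, Dmp1, Ibsp, Bglap and Alpl, the type I collagen chains, and Bmp1 with Pcolce; the 15 largest changes each way and the 5 most abundant called genes each way, at 1 CPM or more and the same sign in every batch, without predicted models; up to 4 called members of each list, or the 2 of smallest p; and the 5 of smallest p for each test against another day. Other genes are given as list members or marked as looked up after their values were seen. The comparison and the lists were chosen with earlier results of these data known. Alternatives were fits without or with fewer batch terms, fewer days, other filters, DESeq2 1.42.0 and its size factors, and leaving out each batch at day 10.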

Additional observations from a re-analysis of the deposited data

Results flagged for a closer look

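3 genes had a genotype difference at day 10 that departed from that at day 0 by the test of the change itself. Acp5 changed by 1.06 ± 0.14 on the log2 scale (3.00, 32.3 and 1.95 CPM in WT and 1.37, 15.8 and 1.13 CPM in HBM at day 0, and 28, 32.9 and 16.7 CPM and 32.1, 33.4 and 16.1 CPM at day 10). Ctsh changed by 0.88 ± 0.12, from 37.4, 129 and 50.7 CPM against 27.3, 74.2 and 37.9 CPM to 183, 155 and 152 CPM against 212, 212 and 187 CPM. Prune2 changed by -1.06 ± 0.13. Each had an adjusted p of 0.0477 in edgeR. DESeq2 gave 8.55e-06, 1.12e-08 and 6.38e-09. Without the batch terms the adjusted p was 1.0 for each, and with 1 batch term for all days it was 0.689, 0.621 and 0.621. Acp5 and Ctsh are also expressed by macrophages; macrophage markers had a median genotype difference of 0.00 at day 0 and 0.05 at day 10, and their part in these changes was not tested.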

How the results depend on the processing

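The numbers of genes higher and lower in HBM at day 10 (111 and 106) were 106 and 104 with DESeq2's size factors and 105 and 116 with at least 1 CPM in 3 libraries. They were 0 and 0 with no replicate block, the pairing by batch being dropped (192 and 284 unadjusted), and 0 and 0 with the block as 1 batch term for all days (573 and 683). The 6 day 10 libraries alone, with the block, gave 2 and 0 (1812 and 1511). Days 10 to 21 alone, with the block, gave 357 and 353, DESeq2 290 and 294, and no filter on low counts 246 and 227. Leaving out a batch gave 2 to 96 higher and 0 to 25 lower. The number of genes whose difference changed from day 0 (3) was 0 with no replicate block and 0 with 1 batch term, 151 in DESeq2, 53 with no filter, 3 with the other size factors and with the 1 CPM filter, and 0 to 10 without a batch. From day 21 it was 0, and 1 in DESeq2; from day 15 it was 0 under every alternative run. All 217 calls were also calls in the fit of days 10 to 21, and DESeq2 called 108 of the 111 and 104 of the 106. Of the 118 named genes, the 73 called lost their calls with no replicate block, with 1 batch term and in the day 10 libraries alone; 72 did without batch 18, 70 without batch 19 and 38 without batch 21, from fewer samples. For 6 uncalled genes leaving out a batch turned the direction: the log2 difference ran from -0.0198 to 0.122 for Acp5, from -0.63 to 0.00916 for Cd163, from -0.93 to 0.00843 for mt-Nd3, from -0.0187 to 0.42 for Cd14, from -0.48 to 0.00714 for Erg and from -0.29 to 0.22 for mt-Nd5. The cause of the other shifts was not tested. In the simulation, which held no pool differences carried over the days, changes of 1.5-fold were often missed.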

Other observations

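Guidance and signalling genes outside the bone program held few calls. Of 30 semaphorins and axon guidance genes, Unc5b, a netrin receptor, was higher in HBM (107, 152 and 92 CPM in WT batches 18, 19 and 21, 160.3, 255 and 114 CPM in HBM, log2 difference 0.55 ± 0.11, adjusted p = 0.0342). Of 23 chemokines and cytokines tested of 26, the cytokine Lif was higher without overlap (2.25, 1.47 and 3.61 CPM against 3.69, 3.79 and 5.73 CPM, 0.89 ± 0.19, adjusted p = 0.0423). The chemokine Cx3cl1 was lower without overlap (109, 105 and 92.2 CPM against 83.8, 73.2 and 65.9 CPM, -0.46 ± 0.08, adjusted p = 0.0273), and it was also called lower at day 0 (-0.52, adjusted p = 0.048). Without batch 18 these 3 had an adjusted p of 0.153, 0.109 and 0.0941, and without batch 19 one of 0.43, 0.48 and 0.336. None of 25 interferon response genes, 16 complement genes and 11 respiratory chain genes of the mitochondrial genome passed in edgeR or DESeq2, with medians of -0.03, 0.08 and -0.03; 2, 7 and 0 had an unadjusted p under 0.05. With 1 batch left out these medians changed sign, from -0.17 to 0.08, from -0.24 to 0.38 and from -0.25 to 0.28.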
